A study of Mus musculus with 12 samples.

Results

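The 8 genes described here are Nptx2, Trh, Pga5, Bc1, AW551984, Pitx1, Nup62cl and Gstm2, out of 54446 genes in the deposited table. They were chosen because earlier results on the same libraries placed their level in SOX17+/T+ cells above or below that of both single-positive populations, or above the midpoint between them. All comparisons of SOX17+/T+ cells with T+ or SOX17+ cells are therefore descriptions for these genes, and no test is attached to them. Poly(A) RNA was sequenced from 4 groups of E14 mouse embryonic stem cells or their progeny, with 3 libraries in each: SOX17+/T+, T+ and SOX17+ cells, sorted after differentiation by their reporters, and undifferentiated mESC. The mESC were kept in serum and LIF, a self-renewal cytokine, on irradiated embryonic fibroblasts. All groups share the E14 line. The labels do not say whether the 3 libraries of a population were separate differentiations, so p-values here cover only library-to-library spread, which may be technical.

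T (Brachyury) is the T-box factor that marks the primitive streak, where the epiblast gives rise to mesoderm and definitive endoderm, and SOX17 is an HMG-box factor of endoderm. Cells that carry both markers are usually placed at the point where endoderm emerges from streak cells. The 8 genes have unlike known functions. They encode a secreted synaptic protein (Nptx2), a hormone precursor (Trh), a digestive zymogen (Pga5), a short non-coding RNA (Bc1), a homeodomain factor (Pitx1), a relative of a nuclear pore protein (Nup62cl), a detoxifying enzyme (Gstm2) and a protein named only by a sequence tag (AW551984).

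The levels of the sorted marker genes went with the labels. T averaged 44.5 ± 15.3 TPM in SOX17+/T+, 127 ± 33.1 TPM in T+, 2.32 ± 0.493 TPM in SOX17+ and 0.647 ± 0.0275 TPM in mESC (SD, n = 3 each). Sox17 averaged 139 ± 13.8, 10.3 ± 2.5, 230 ± 16.7 and 0.638 ± 0.157 TPM in the same groups. TPM is a level per transcript length, scaled to the same total in each library. A minimum of 50 M fragments is stated for every library, and the exact read depth behind the TPM is unknown. In sorted bulk samples, fewer cells with a transcript and less of it per cell cannot be told apart. All 8 genes passed the filter on low values (1 TPM or more in any 3 of the 12 libraries), as did 16097 genes in all.

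In 4 of the 8 genes (Nptx2, Pga5, Bc1 and AW551984) every SOX17+/T+ library lay above every T+ and SOX17+ library, a pattern that 1.55% of all tested genes showed. In 3 of them (Pitx1, Nup62cl and Gstm2) every SOX17+/T+ library lay below, as in 2.71% of tested genes. T+ and SOX17+ libraries overlapped for Nptx2, Bc1, Pitx1 and Gstm2 (4 of 8), against 39.5% of tested genes. Trh was the remaining gene, and its SOX17+/T+ libraries overlapped those of SOX17+ cells. These counts follow from the choice of the genes. By the limma test over all genes, 118 genes (0.733%) were higher in SOX17+/T+ than in both single-positive groups and 142 (0.882%) were lower. In the order of the gap to the nearer single-positive group on the log2(TPM + 1) scale, Nptx2, Pga5, Bc1 and AW551984 stood at places 1, 3, 4 and 7 of the 118. Ntn1, a netrin, stood at place 2 with a gap of 0.88, against 0.86 for Pga5. Pifo, just after AW551984 (0.68), also had a gap of 0.68. Pitx1, Nup62cl and Gstm2 stood at places 10, 24 and 25 of the 142. Lmo2, which follows Gstm2 (0.37), had a gap of 0.35. The 8 genes were chosen on these same contrasts. The presence and places of any of them in these orders follow from that choice, and are no test of them.

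**Figure D1:**
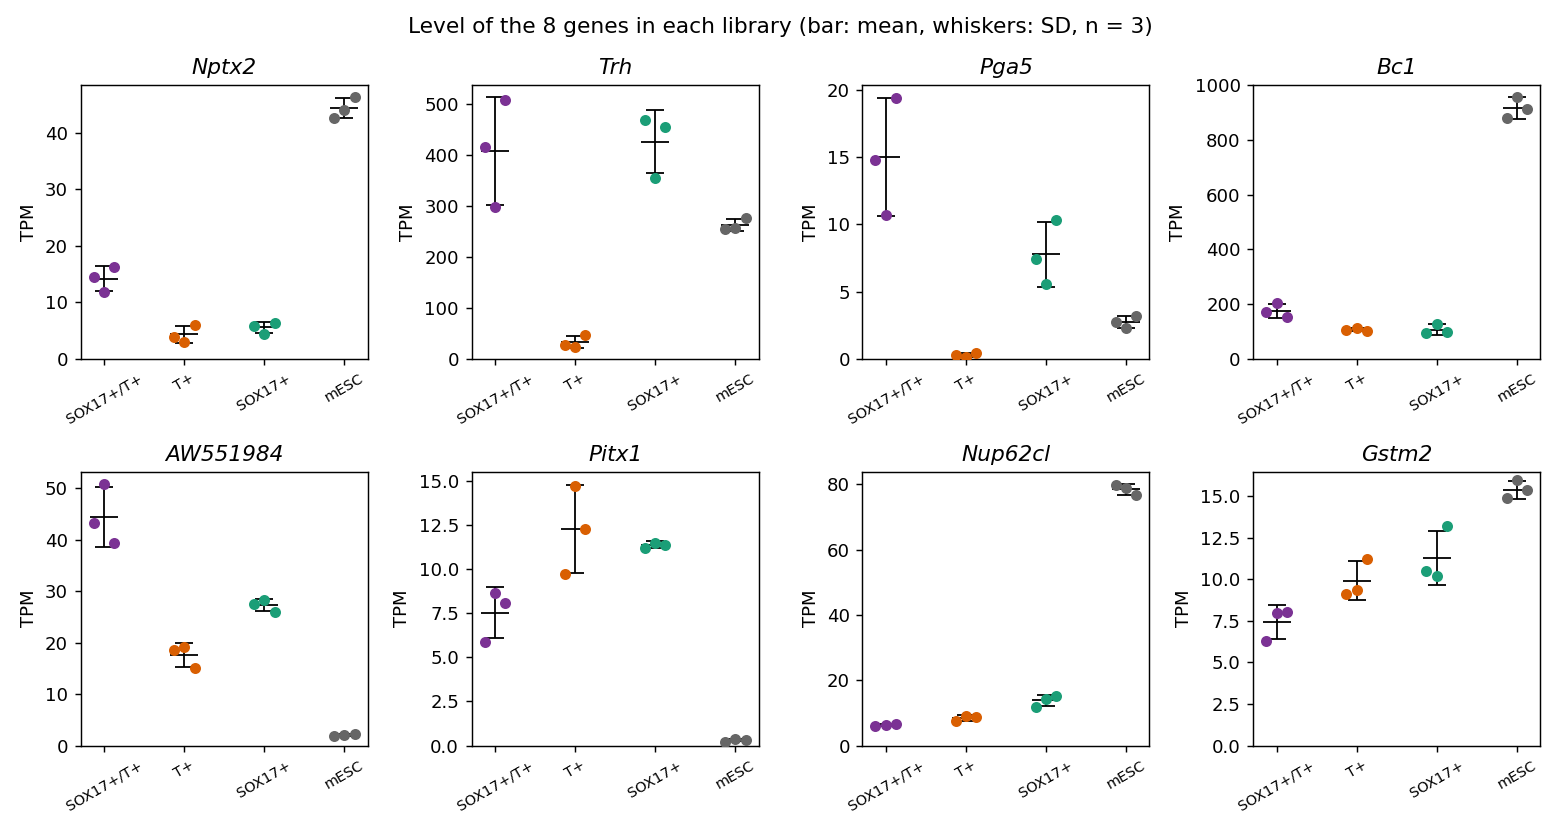
Level of each gene in TPM (vertical axis, linear and starting at 0) in the 3 libraries (points) of each group, with the mean (bar) and SD (whiskers). Nptx2, Pga5, Bc1 and AW551984 have their SOX17+/T+ points above both single-positive groups, and Pitx1, Nup62cl and Gstm2 have them below. The mESC points are the highest in Nptx2, Bc1, Nup62cl and Gstm2 and the lowest in AW551984 and Pitx1.

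Nptx2 (neuronal pentraxin 2, ENSMUSG00000059991.7, chromosome 5, 144545902 to 144557478, plus strand, GRCm38) encodes a secreted protein that clusters AMPA-type glutamate receptors at synapses. It stood at 14.5, 11.8 and 16.2 TPM in SOX17+/T+ replicates 1, 2 and 3, at 3.92, 3.04 and 5.96 TPM in T+, at 5.79, 4.47 and 6.42 TPM in SOX17+ and at 42.7, 44.1 and 46.3 TPM in mESC. The lowest SOX17+/T+ library held more than the highest library of either single-positive group, T+ and SOX17+ overlapped, and mESC stood above all sorted cells. The mean in SOX17+/T+ was 3.29 times that in T+ and 2.55 times that in SOX17+. It was 31.9% of the mESC mean, where T+ was at 9.71% and SOX17+ at 12.5%.

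The other neuronal pentraxins did not share this level. Nptx1 averaged 0.286 ± 0.137 TPM in SOX17+/T+, 0.135 ± 0.00912 TPM in T+ and 0.32 ± 0.13 TPM in SOX17+. The pentraxin receptor Nptxr averaged 4.16 ± 0.387 TPM in SOX17+/T+ and 3.17 ± 0.363 TPM in SOX17+, a rise of 0.31 ± 0.10 on the log2 scale (limma, adjusted p = 0.028), and did not pass against T+ (0.11 ± 0.10, adjusted p = 0.48). In a list of 13 other pentraxin and glutamate receptor genes, 7 were tested. Against T+, 1 was higher and 3 were lower, where 12.6% and 15.8% of all tested genes were called (28.4% in either direction). Against SOX17+, 5 were higher and 0 lower (7 tested), with 16.8% and 19.8% of all genes called (36.6% in either direction). Among the 5 was Bdnf, at 0.259 TPM in SOX17+/T+ and 0.0807 TPM in SOX17+. It no longer passed after quantile normalization (limma, adjusted p = 0.06), which left 4 higher and 0 lower. With the replicate number as a block, 5 were higher and 1 lower. C1ql1, a secreted C1q-like synaptic organizer, was higher than in T+ (0.56 ± 0.11, adjusted p = 0.0025) and than in SOX17+ (0.81 ± 0.11, adjusted p = 1e-04). It averaged 4.85 ± 0.728 TPM in SOX17+/T+, 2.97 ± 0.406 TPM in T+ and 2.34 ± 0.335 TPM in SOX17+. The AMPA receptor subunit genes Gria3 and Gria4 lay between the single-positive groups. Gria4 averaged 3.67 ± 0.295 TPM in SOX17+/T+, 8.31 ± 1.6 TPM in T+ and 0.486 ± 0.107 TPM in SOX17+, and both differences passed the test (adjusted p = 3.1e-05 against T+ and 2.5e-07 against SOX17+).

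Bc1 (brain cytoplasmic RNA 1, ENSMUSG00000115783.1, chromosome 7, 144914470 to 144914637, plus strand) is a non-coding RNA of rodents made by RNA polymerase III and known as a repressor of translation in neurons. It has 1 exon of 168 bases. Its start derives from a tRNA and holds the internal promoter, and its middle is rich in A. The GENCODE M21 transcript is printed to show its internal promoter and its A-rich stretch, since the libraries were made from poly(A) RNA. Capitals mark the A box (bases 14 to 24) and the B box (bases 57 to 66), found by their consensus letters, and the longest run of A spans bases 77 to 99, 23 in a row.
Bc1 (chr7:144914470-144914637, plus strand): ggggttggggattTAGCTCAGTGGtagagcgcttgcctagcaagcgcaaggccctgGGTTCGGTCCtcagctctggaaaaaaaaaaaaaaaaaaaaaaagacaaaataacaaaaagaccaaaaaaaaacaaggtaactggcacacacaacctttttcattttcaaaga

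Bc1 stood at 171, 203 and 153 TPM in SOX17+/T+, at 104, 113 and 103 TPM in T+, at 95, 128 and 98 TPM in SOX17+ and at 878, 957 and 912 TPM in mESC. The SOX17+/T+ libraries lay above both single-positive groups, which overlapped and had the same mean of 107 TPM, and all sorted libraries lay far below mESC. The SOX17+/T+ mean was 1.65 times that of T+ and 1.64 times that of SOX17+. Of the 119 windows of 50 bases in the transcript, 37 (31.1%) also occurred in transcripts of 2 other genes, mostly Lrrc17, and of the windows of 100 bases, the read length, 0 of 69 did. The sources used here do not say how reads shared with other loci, or from so short an RNA, were counted, so its level is uncertain.

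The genes nearest to Bc1 over the 12 libraries were Ass1 (Pearson's r = 0.996), Txn2 (0.993) and Stoml1 (0.992). Ass1, argininosuccinate synthase, averaged 67.8 TPM in SOX17+/T+, 48.6 TPM in T+, 48 TPM in SOX17+ and 319 TPM in mESC. Nearest to Nptx2 were Socs2 (0.971), Iqgap1 (0.970) and Socs5 (0.961). Socs2, an inhibitor of cytokine signalling, averaged 34.9 TPM in SOX17+/T+, 21.1 TPM in T+, 27 TPM in SOX17+ and 60.3 TPM in mESC. These correlations describe libraries that fall into groups, and carry no test.

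Genes for proteins that bind BC1 or build RNA polymerase III were measured beside it. Of 16 tested, 1 was higher and 1 lower in SOX17+/T+ than in T+, and with the replicate number as a block 1 was higher and 3 lower, where 28.4% of all tested genes passed without the block. Against SOX17+, 3 were higher and 3 lower, near the 36.6% of all tested genes that passed. Polr3g, a polymerase III subunit of stem cells, averaged 33.6 ± 1.84 TPM in SOX17+/T+, 30 ± 0.883 TPM in T+ and 39.1 ± 1.55 TPM in SOX17+. It was higher than in T+ (0.16 ± 0.05, adjusted p = 0.023) and lower than in SOX17+ (-0.21 ± 0.05, adjusted p = 0.0036). Polr3gl, its paralog, was lower than in T+ (-0.52 ± 0.11, adjusted p = 0.004).

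Within 100 kb of Bc1, 6 neighbours were tested, of which 2 passed against T+ and 5 against SOX17+. Of all tested genes, 28.4% passed against T+ and 36.6% against SOX17+. The neighbours share 1 stretch of chromosome, and a link between them and the level of Bc1 was not tested. Oraov1, the nearest at 463 bases, averaged 8.2 TPM in SOX17+/T+, 8.46 TPM in T+ and 9.2 TPM in SOX17+. It passed against neither (limma, adjusted p = 0.78 for T+ and 0.27 for SOX17+). Fgf4 passed against both, at 0.442 TPM in SOX17+/T+, 0.991 TPM in T+, 0.126 TPM in SOX17+ and 74.7 TPM in mESC. Ccnd1 (cyclin D1), 15294 bases away, averaged 82.4 TPM in SOX17+/T+, 114 TPM in T+ and 40.9 TPM in SOX17+, and differed from both (log2 -0.46, adjusted p = 1.6e-05, and 0.99, adjusted p = 2e-08). Fgf15, 13517 bases away, was at 54.4 TPM in SOX17+/T+, 67 TPM in T+ and 24.7 TPM in SOX17+, a rise of 1.09 over SOX17+ (adjusted p = 2.3e-05), and did not pass against T+ (-0.30, adjusted p = 0.084).

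Trh (ENSMUSG00000005892.4, chromosome 6, 92242061 to 92244650, minus strand) encodes the precursor of thyrotropin-releasing hormone, which the hypothalamus uses to drive the pituitary-thyroid axis. It had 416, 297 and 508 TPM in SOX17+/T+, 27.8, 24.1 and 45.9 TPM in T+, 469, 355 and 455 TPM in SOX17+ and 255, 256 and 276 TPM in mESC. T+ stood apart as low, SOX17+/T+ and SOX17+ overlapped, and mESC lay between them and T+. The SOX17+/T+ mean of 407 ± 106 TPM was 12.5 times the T+ mean and 0.955 times the SOX17+ mean. It stood 1.77 above the midpoint of the single-positive groups on the log2(TPM + 1) scale. The midpoint of the mean TPM, 229 TPM, is a different yardstick, and against it the excess was 0.82.

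Pga5 (ENSMUSG00000024738.6, chromosome 19, 10668956 to 10678071, minus strand) encodes a pepsinogen, the inactive form of a stomach protease. It had 14.8, 10.7 and 19.4 TPM in SOX17+/T+, 0.265, 0.121 and 0.397 TPM in T+, 7.41, 5.56 and 10.3 TPM in SOX17+ and 2.73, 2.28 and 3.21 TPM in mESC. The SOX17+/T+ libraries were the highest, SOX17+, mESC and T+ came next in that order, and no 2 groups overlapped. The SOX17+/T+ mean was 1.93 times the SOX17+ mean. T+ libraries were all under 1 TPM, so the ratio to T+ is not well set. Against the midpoint the excess was 2.25 on the log2(TPM + 1) scale, 3.18 with a pseudocount of 0.1, and 1.67 against the midpoint of the mean TPM.

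Over the 12 libraries, Trh and Pga5 had a Pearson's r of 0.905, and over the 9 sorted libraries 0.963, values that share the choice of both genes and the libraries. In the likeness search over 12 libraries, Elf3, an ETS factor of epithelia, was nearest to Trh (r = 0.989), with Mfng (0.982) and Tmem28 (0.975) after it. Elf3 averaged 36.9 TPM in SOX17+/T+, 12 TPM in T+, 34.1 TPM in SOX17+ and 32 TPM in mESC. Parm1 (0.978), Cadm4 (0.975) and Vill (0.964) were nearest to Pga5. Vill, a villin-like gene, averaged 12.2 TPM in SOX17+/T+, 4.57 TPM in T+, 11.3 TPM in SOX17+ and 6.37 TPM in mESC.

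The enzymes and receptors that handle TRH were measured beside it. Of 11 other genes on that list, 7 were tested, and against T+ 0 passed by limma, with 0 at an unadjusted p under 0.05 and 0 with the replicate block. Against SOX17+, 1 was higher and 3 were lower. The share of all tested genes that passed was 28.4% against T+ and 36.6% against SOX17+. Furin, a processing protease, averaged 50.4 ± 2.97 TPM in SOX17+/T+ and 60.4 ± 1.48 TPM in SOX17+ (-0.26 ± 0.06, adjusted p = 0.0041). Pam, which amidates peptide hormones, averaged 48.4 ± 1.04 TPM in SOX17+/T+ and 60 ± 0.49 TPM in SOX17+ (-0.31 ± 0.04, adjusted p = 9e-05). Cpe, a carboxypeptidase of the same route, was higher, at 15.6 ± 1.37 TPM against 8.55 ± 1.04 TPM in SOX17+ (0.80 ± 0.10, adjusted p = 4.7e-05). The receptor gene Trhr was listed at 0 in SOX17+/T+, T+ and SOX17+, and Trhr2 averaged 0.549 TPM in SOX17+/T+, 0.299 TPM in T+ and 0.186 TPM in SOX17+.

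Among 9 other aspartic protease genes, 7 were tested. Against T+, 3 were higher and 0 lower, and against SOX17+, 0 were higher and 4 lower, and no gene that passed lay above both single-positive groups. Over all tested genes, 28.4% passed against T+ and 36.6% against SOX17+. Ctse, cathepsin E, averaged 3.71 ± 0.115 TPM in SOX17+/T+, 1.03 ± 0.2 TPM in T+ and 8.29 ± 0.777 TPM in SOX17+ (adjusted p = 3.9e-07 against T+ and 2.1e-06 against SOX17+). Ctsd, cathepsin D, averaged 186 ± 4.85, 159 ± 5.63 and 230 ± 2.62 TPM in SOX17+/T+, T+ and SOX17+. Pgc, progastricsin, the other pepsinogen on the list, averaged 0.0755 TPM in SOX17+/T+, 0.0633 TPM in T+ and 0.217 TPM in SOX17+.

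AW551984 (ENSMUSG00000038112.15, chromosome 9, 39587396 to 39604403, minus strand) is a protein-coding gene whose 21 merged exons span 6082 bases. It had 43.2, 50.8 and 39.3 TPM in SOX17+/T+, 18.6, 19.2 and 15 TPM in T+, 27.5, 28.3 and 26 TPM in SOX17+ and 1.86, 2.12 and 2.17 TPM in mESC. No 2 groups overlapped, and the order was SOX17+/T+, SOX17+, T+ and mESC. The SOX17+/T+ mean was 2.53 times that of T+ and 1.63 times that of SOX17+. None of the 12 annotated neighbours within 100 kb passed the filter on low values. The genes nearest to it over 12 libraries were the FK506-binding protein gene Fkbp1b (r = 0.993), Lrrc3 (0.992) and Frem2 (0.991), an extracellular matrix gene. Frem2 averaged 58.8 TPM in SOX17+/T+, 27.3 TPM in T+, 42.8 TPM in SOX17+ and 2.62 TPM in mESC. AW551984 had been placed in a list with von Willebrand factor A domain genes, of which 6 others were tested, 0 higher and 1 lower than in T+, and 2 higher and 2 lower than in SOX17+. Over all tested genes, 28.4% passed against T+ and 36.6% against SOX17+. With a pseudocount of 0.1, 1 was higher and 0 lower than in SOX17+, since Vwa5b2 (adjusted p = 0.065), Itih5 (0.059) and Vwa1 (0.069) no longer passed. Vwa5a averaged 29.7 ± 1.08 TPM in SOX17+/T+, 30.1 ± 2.88 TPM in T+ and 22.7 ± 0.481 TPM in SOX17+.

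RefSeq promoter windows on GRCm38.p6, 250 bases before to 50 after the start, were at hand for 5 of the 8 genes. They were searched on both strands for 7 short motifs, and no 2 matches overlapped. Among all 32851 windows, the T-box half-site AGGTGT occurred in 13.7%, the SOX letters ACAATGG in 3.66% and the GATA letters AGATAA in 11.2%. The FOX letters TGTTTAC occurred in 3.65%, the bicoid-type homeobox letters TAATCC in 7.06%, the GC box GGGCGG in 35.7% and the TATA box TATAAA in 13.6%. The windows of Trh, AW551984 and Nup62cl, 1 per gene, are printed because their genes stood near SOX17+ cells, above both single-positive groups and below both. These are also the genes with matches, and the windows of Bc1 and Gstm2 held 0. Capitals mark each match.
Trh (chr6:92244601-92244900, minus strand): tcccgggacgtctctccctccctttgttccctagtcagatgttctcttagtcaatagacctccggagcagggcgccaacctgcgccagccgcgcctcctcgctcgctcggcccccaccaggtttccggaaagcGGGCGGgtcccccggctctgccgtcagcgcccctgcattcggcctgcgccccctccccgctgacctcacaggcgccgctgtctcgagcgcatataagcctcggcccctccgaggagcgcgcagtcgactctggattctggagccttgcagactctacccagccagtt
AW551984 (chr9:39604221-39604520, minus strand): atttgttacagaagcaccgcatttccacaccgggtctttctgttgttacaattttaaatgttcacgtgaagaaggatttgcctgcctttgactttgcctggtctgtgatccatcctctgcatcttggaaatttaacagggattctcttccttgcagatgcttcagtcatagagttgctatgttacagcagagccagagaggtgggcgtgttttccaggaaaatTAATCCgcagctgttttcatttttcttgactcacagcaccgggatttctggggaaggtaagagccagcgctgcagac
Nup62cl (chrX:140062519-140062818, minus strand): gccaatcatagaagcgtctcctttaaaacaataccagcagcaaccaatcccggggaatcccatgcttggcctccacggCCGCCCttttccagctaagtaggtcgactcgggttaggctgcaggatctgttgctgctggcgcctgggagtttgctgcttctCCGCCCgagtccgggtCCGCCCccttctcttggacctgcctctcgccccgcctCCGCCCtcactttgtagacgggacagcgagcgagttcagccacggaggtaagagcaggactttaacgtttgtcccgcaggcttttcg

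The Trh window is rich in G and C (67%, against a median of 52.7% in all windows) and holds 1 GC box. The AW551984 window is poorer (45.7%) and holds 1 bicoid-type match, 27 bases before the start. Of the other 2 AW551984 windows, 1 overlaps the first and holds the same bicoid-type letters, and 1 holds a GC box 17 bases after its start. Nup62cl (59.7%) holds 4 GC boxes. The T-box, SOX, GATA and FOX letters were not found in these 3 windows.

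Pitx1 (ENSMUSG00000021506.7, chromosome 13, 55825051 to 55836192, minus strand) encodes a bicoid-type homeodomain factor known from the hindlimb and the pituitary. It had 5.9, 8.63 and 8.07 TPM in SOX17+/T+, 9.73, 14.7 and 12.3 TPM in T+, 11.2, 11.5 and 11.4 TPM in SOX17+ and 0.229, 0.367 and 0.332 TPM in mESC. SOX17+/T+ lay below both single-positive groups, which overlapped, and far above mESC. Its mean was 0.615 times that of T+ and 0.662 times that of SOX17+. An antisense gene and a long non-coding gene are annotated over it (Gm47071 and Gm28760). The library kit keeps strand, and the sources used here do not say whether the counting used it.

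In a list of 14 other homeodomain, hindlimb and left-right genes, 8 were tested, of which 0 were higher and 4 lower than in T+, and 3 higher and 1 lower than in SOX17+. The share of all tested genes that passed was 28.4% against T+ and 36.6% against SOX17+. Lefty2, a secreted NODAL antagonist, averaged 3.3 ± 0.95 TPM in SOX17+/T+, 21.3 ± 3.85 TPM in T+ and 0.225 ± 0.0637 TPM in SOX17+ (-2.38 ± 0.15, adjusted p = 1.6e-07 against T+). The LIM homeodomain gene Isl1 averaged 21 ± 1.47 TPM in SOX17+/T+, 36.6 ± 1.25 TPM in T+ and 22.6 ± 4.57 TPM in SOX17+. The genes nearest to Pitx1 over the 12 libraries were Irf2 (r = 0.995), Reck (0.993) and Rbbp7 (0.993).

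Nup62cl (ENSMUSG00000072944.11, chromosome X, 140006805 to 140062712, minus strand) is related to NUP62, a protein of the central channel of the nuclear pore. It had 5.91, 6.33 and 6.6 TPM in SOX17+/T+, 7.48, 9.09 and 8.87 TPM in T+, 11.9, 14.3 and 15.3 TPM in SOX17+ and 79.9, 79 and 76.7 TPM in mESC. No 2 groups overlapped, mESC stood far above the rest and SOX17+/T+ was the lowest. Its mean was 0.741 times that of T+ and 0.455 times that of SOX17+. Nup62 itself averaged 81.5 ± 1.85 TPM in SOX17+/T+, 89.7 ± 3.04 TPM in T+ and 81.3 ± 2.02 TPM in SOX17+. It was lower than in T+ by a small step (-0.14 ± 0.04, adjusted p = 0.013) and did not pass against SOX17+ (adjusted p = 0.96).

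Of 15 nucleoporin genes tested, 1 was higher and 2 lower than in T+, and 4 higher and 2 lower than in SOX17+. Over all tested genes, 28.4% passed against T+ and 36.6% against SOX17+. With the replicate block 3 were lower than in T+, Nup133 among them (adjusted p = 0.046). Nup210, a membrane nucleoporin, averaged 36.7 ± 2.25 TPM in SOX17+/T+, 12.1 ± 0.873 TPM in T+ and 53.9 ± 4.07 TPM in SOX17+, 1.52 ± 0.07 above T+ (adjusted p = 6.4e-09) and -0.54 ± 0.07 from SOX17+ (adjusted p = 3.5e-05). The genes nearest to Nup62cl over the 12 libraries were Snx17 (r = 0.997), Dcbld1 (0.996) and Sec24d (0.994). Dcbld1 averaged 5.45 TPM in SOX17+/T+, 5.96 TPM in T+, 8.67 TPM in SOX17+ and 26.7 TPM in mESC.

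Gstm2 (ENSMUSG00000040562.12, chromosome 3, 107981702 to 107986453, minus strand) encodes a glutathione S-transferase of the mu class, enzymes that join glutathione to reactive compounds. It had 6.29, 7.98 and 8.05 TPM in SOX17+/T+, 9.1, 9.39 and 11.2 TPM in T+, 10.5, 10.2 and 13.2 TPM in SOX17+ and 14.9, 16 and 15.4 TPM in mESC. SOX17+/T+ was the lowest group, T+ and SOX17+ overlapped, and mESC was the highest. The SOX17+/T+ mean was 0.751 times that of T+ and 0.658 times that of SOX17+. Of the 1015 windows of 50 bases in its transcript, 95 (9.36%) also occurred in transcripts of 3 other genes. Of 965 windows of 100 bases, 6 occurred in 1 other gene, listed at 0 TPM in all 4 groups. The level of Gstm2 may hold reads of near-identical copies, which was not tested. Akt1 (r = 0.964), Emc2 (0.954) and Irf3 (0.95) were the genes nearest to it over the 12 libraries.

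The mu-class genes stand side by side on the chromosome, and they differed in direction. Gstm4 was lower in SOX17+/T+ (7.2 ± 0.796 TPM) than in T+ (8.88 ± 0.441 TPM; -0.27 ± 0.08, adjusted p = 0.022) and than in SOX17+ (9.36 ± 0.647 TPM; -0.34 ± 0.08, adjusted p = 0.005). Gstm5, the most abundant of them in the sorted groups, was between them, at 60.1 ± 2.41 TPM in SOX17+/T+, 89.9 ± 1.26 TPM in T+ and 45 ± 1.78 TPM in SOX17+ (-0.57 ± 0.04, adjusted p = 7.8e-07, and 0.41 ± 0.04, adjusted p = 1.1e-05). Gstm1 averaged 32.6 ± 1.73 TPM in SOX17+/T+, 34.1 ± 1.91 TPM in T+ and 27.8 ± 2.08 TPM in SOX17+, higher than in SOX17+ (0.22 ± 0.07, adjusted p = 0.027). Of 25 tested genes of glutathione transfer and synthesis, 7 were higher and 7 lower than in T+, and 5 higher and 9 lower than in SOX17+. The share of all tested genes that passed was 28.4% against T+ and 36.6% against SOX17+. Nqo1, a quinone reductase on that list, was named after its values were seen, so they are a description with no test. It averaged 1.16 ± 0.186 TPM in SOX17+/T+, 1.81 ± 0.196 TPM in T+ and 2.27 ± 0.512 TPM in SOX17+. The comparisons with T+ and with SOX17+ share the SOX17+/T+ libraries.

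The median log2 difference of each list, without the 8 genes, is set beside that of all tested genes, -0.03 against T+ and -0.001 against SOX17+. The list with Pitx1 had medians of -0.48 against T+ and 0.48 against SOX17+. The pentraxin list had 0.04 and 0.31, the TRH list 0.02 and -0.26, and the aspartic protease list 0.13 and -0.30 in these comparisons. The medians were -0.03 and 0.01 for the BC1 list, -0.09 and 0.06 for nucleoporins, -0.01 and -0.04 for the glutathione list, and within 0.01 of 0 in both for the von Willebrand factor A list.

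**Figure D2:**
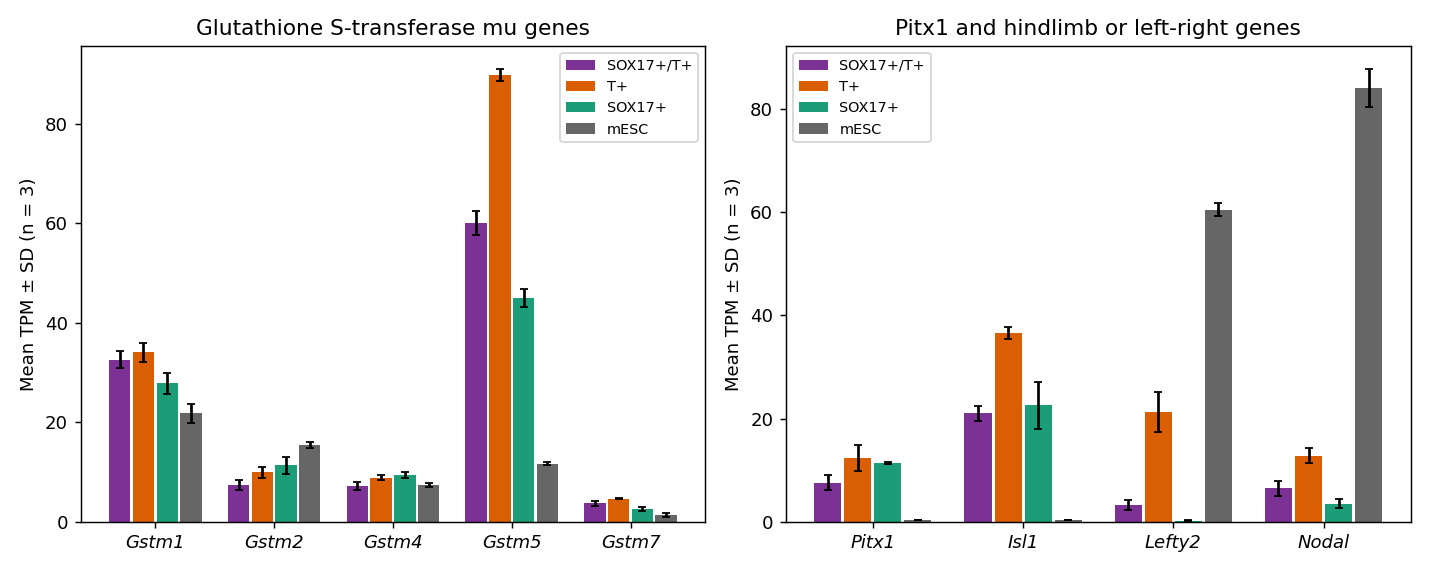
Mean TPM (bars, axis starting at 0) ± SD over 3 libraries for mu-class glutathione S-transferase genes (left) and for Pitx1, Isl1, Lefty2 and Nodal (right) in each group. Gstm2 and Gstm4 have their lowest bars in SOX17+/T+ cells, while Gstm5 at 60.1 TPM lies between T+ and SOX17+. Pitx1 lies below both single-positive groups, and Lefty2 at 3.3 TPM lies between them.

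**Figure D3:**
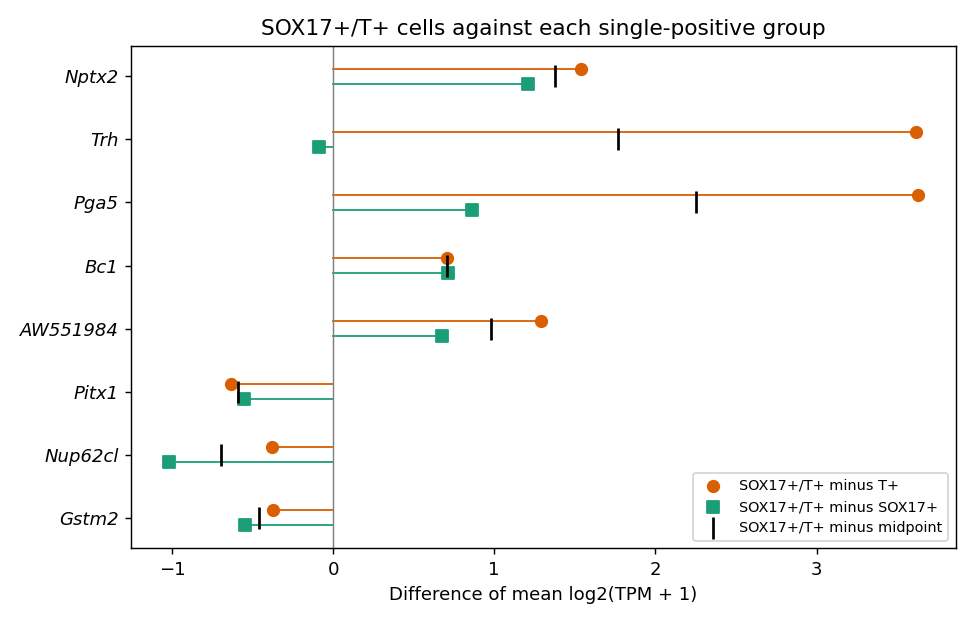
Difference of the mean log2(TPM + 1) of SOX17+/T+ cells from T+ (circles), from SOX17+ (squares) and from the midpoint of both (ticks), for each gene. Trh and Pga5 have the widest split, with Trh 3.62 above T+ and -0.09 from SOX17+, while Bc1 differs from both by 0.71. The genes were chosen on these differences, so no test is shown.

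The mESC libraries took no part in the choice of the genes, so each sorted group was tested against them, with the 3 comparisons sharing the mESC libraries. The sorted libraries did take part. In SOX17+/T+ cells 7 of 8 genes passed, in T+ cells 8 and in SOX17+ cells 8, against 85.2%, 84% and 85.4% of all tested genes, so the members' counts are near the background. In no gene did any sorted group overlap mESC, as held for 86.3% of tested genes in SOX17+/T+, 86.1% in T+ and 86.1% in SOX17+ cells. Of all genes that passed in SOX17+/T+, T+ and SOX17+ cells, 40.9%, 41% and 41.5% were higher as deposited, and 53.2%, 53.4% and 52.4% after quantile normalization. The median change of all genes in SOX17+/T+ cells was -0.19 as deposited and 0.06 after quantile normalization. The changes below are as deposited, to be read against that median, and none of the 8 genes changed sign under either scaling.

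Nptx2, Bc1, Nup62cl and Gstm2 fell in all 3 sorted groups, where 50.3% of all genes were called lower in SOX17+/T+, 49.5% in T+ and 50% in SOX17+ cells. The log2 change of Nptx2 was -1.59 ± 0.18 in SOX17+/T+ (adjusted p = 4.7e-06), -3.13 ± 0.18 in T+ (adjusted p = 7.6e-09) and -2.8 ± 0.18 in SOX17+ cells (adjusted p = 2.2e-08). Bc1 changed by -2.38 ± 0.12 in SOX17+/T+ (adjusted p = 6.5e-09), -3.09 ± 0.12 in T+ and -3.1 ± 0.12 in SOX17+ cells. These are smaller changes in SOX17+/T+ than in the other sorted groups, a difference that the choice of both genes fixes. Nup62cl changed by -3.45 ± 0.09 in SOX17+/T+ (adjusted p = 4.2e-13), -3.07 ± 0.09 in T+ and -2.43 ± 0.09 in SOX17+ cells. Gstm2 changed by -0.97 ± 0.11 in SOX17+/T+ (adjusted p = 1.7e-06), -0.60 ± 0.11 in T+ (adjusted p = 0.00017) and -0.42 ± 0.11 in SOX17+ cells (adjusted p = 0.0024).

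AW551984 and Pitx1 rose in all 3 sorted groups, where 34.9% of all genes were called higher in SOX17+/T+, 34.5% in T+ and 35.4% in SOX17+ cells. AW551984 rose by 3.89 ± 0.10 in SOX17+/T+ (adjusted p = 4.9e-13), 2.6 ± 0.10 in T+ and 3.21 ± 0.10 in SOX17+ cells. Pitx1 rose by 2.69 ± 0.14 in SOX17+/T+ (adjusted p = 4.9e-10), 3.32 ± 0.14 in T+ and 3.24 ± 0.14 in SOX17+ cells, or by 4.22 in SOX17+/T+ with a pseudocount of 0.1. Nptx2, Bc1 and Pitx1 were the 3 genes whose SOX17+/T+ mean lay between that of mESC and both single-positive means.

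Trh and Pga5 moved in opposite directions in the single-positive groups. The log2 change of Trh was -3.02 ± 0.26 in T+ cells (adjusted p = 2.8e-06) and 0.69 ± 0.26 in SOX17+ cells (adjusted p = 0.032). In SOX17+/T+ cells it stood 0.60 ± 0.26 above mESC and did not pass (adjusted p = 0.055), although its 3 libraries lay above all mESC libraries. It passed there after median-of-ratios scaling (0.76, adjusted p = 0.017) and quantile normalization (0.93, adjusted p = 0.0085), and without the trended robust variance (adjusted p = 0.033). It also passed without SOX17+/T+ replicate 2 (0.81, adjusted p = 0.017), T+ replicate 2 (adjusted p = 0.046) or T+ replicate 3 (adjusted p = 0.017). The call in SOX17+ cells was lost without SOX17+ replicate 1 (adjusted p = 0.09) or 3 (adjusted p = 0.085) and without mESC replicate 1 or 2 (adjusted p = 0.072 each) or 3 (adjusted p = 0.052). Pga5 rose by 2.07 ± 0.22 in SOX17+/T+ (adjusted p = 2.1e-06) and by 1.2 ± 0.22 in SOX17+ cells (adjusted p = 0.00025). In T+ cells it changed by -1.57 ± 0.22 (adjusted p = 2.6e-05), or by -3.04 with a pseudocount of 0.1.

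**Figure D4:**
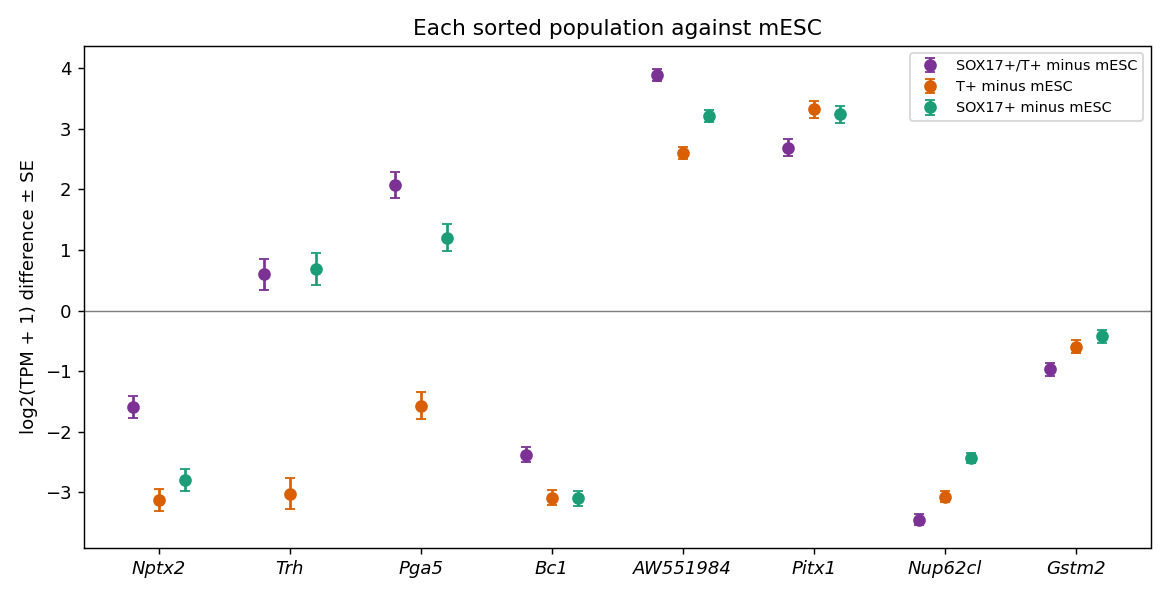
Change of each gene against mESC (difference of log2(TPM + 1), points) with its limma standard error (whiskers) in SOX17+/T+, T+ and SOX17+ cells. Nptx2, Bc1, Nup62cl and Gstm2 lie below 0 in all groups, AW551984 and Pitx1 above 0, and Trh and Pga5 lie below 0 in T+ cells only, with Trh in SOX17+/T+ cells (0.60) not past the threshold.

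Libraries with the same replicate number moved together in several of these genes. Replicate 2 was the lowest in each of the 3 sorted groups for Nptx2, Trh and Pga5, as in 11.8% of all tested genes, and the highest in each for Bc1, AW551984 and Pitx1, as in 4.09%. The ratio of SOX17+/T+ to SOX17+ cells within a replicate number was 2.49, 2.64 and 2.53 for Nptx2, 2, 1.92 and 1.88 for Pga5, and 0.888, 0.836 and 1.12 for Trh. The ratio of SOX17+/T+ to T+ cells was 3.69, 3.88 and 2.72 for Nptx2, 56.1, 88.2 and 48.9 for Pga5, and 15, 12.3 and 11.1 for Trh. For Nptx2 and Pga5 the ratios to SOX17+ were closer to each other than the SOX17+/T+ levels, and for Nptx2 the ratios to T+ were not. All T+ libraries were under 1 TPM for Pga5, so its ratios to T+ are not well set.

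Markers of other cell types were summed over their lists beside these patterns, and their part in them was not tested. The 8 pluripotency markers summed to 48.7 to 56.4 TPM in SOX17+/T+, 116 to 142 TPM in T+, 22.1 to 26.9 TPM in SOX17+ and 5310 to 5410 TPM in mESC. The sum in SOX17+/T+ cells lay between the single-positive groups, and its members differed in direction, with 2 higher and 2 lower than in T+ and 5 higher and 1 lower than in SOX17+. Over all tested genes, 28.4% passed against T+ and 36.6% against SOX17+. Pou5f1 (OCT4) averaged 25.1 ± 2.4 TPM in SOX17+/T+, 92 ± 16.8 TPM in T+, 5.69 ± 0.529 TPM in SOX17+ and 1370 ± 25.5 TPM in mESC. Esrrb, a naive pluripotency factor, was named after its values were seen, so they are a description with no test. It averaged 1.1 ± 0.169 TPM in SOX17+/T+, 0.629 ± 0.0706 TPM in T+, 0.726 ± 0.289 TPM in SOX17+ and 320 ± 16.8 TPM in mESC. Its level in the sorted groups was thus near or under 1 TPM, the threshold of the filter. The 7 feeder fibroblast markers summed to 48.9 to 59.8 TPM in SOX17+/T+, 71.6 to 84.7 TPM in T+, 50.2 to 56.9 TPM in SOX17+ and 2540 to 3170 TPM in mESC, and S100a4 was listed at 0 in all SOX17+/T+ and SOX17+ libraries.

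Neural markers, chosen since Nptx2, Trh and Bc1 are known from neurons, summed to 25.5 to 30.6 TPM in SOX17+/T+, 28.4 to 35.6 TPM in T+, 19.3 to 21.6 TPM in SOX17+ and 122 to 130 TPM in mESC (8 genes). Most of the sum in sorted cells was Dlg4, a scaffold gene, at 25 ± 2.72 TPM in SOX17+/T+, 27.7 ± 3.56 TPM in T+ and 16.3 ± 1.41 TPM in SOX17+. The neuronal tubulin Tubb3 was at 0.434 ± 0.0834 TPM in SOX17+/T+, 0.344 ± 0.187 TPM in T+, 1.54 ± 0.501 TPM in SOX17+ and 93.2 ± 3.01 TPM in mESC. The 6 germ cell markers summed to 20.7 to 24.7 TPM in SOX17+/T+, 19.8 to 21.7 TPM in T+ and 21.1 to 25.7 TPM in SOX17+, with Dppa3 listed at 0 in all of them. Streak markers (8 genes) summed to 141 to 206 TPM in SOX17+/T+, 275 to 344 TPM in T+ and 47.3 to 65.3 TPM in SOX17+, endoderm markers (9 genes) to 1620 to 1660, 545 to 656 and 2160 to 2300 TPM, and node and notochord markers (8 genes) to 130 to 214, 174 to 310 and 98.8 to 120 TPM. Visceral endoderm (7 genes) summed to 10.1 to 12, 1.61 to 3.03 and 104 to 119 TPM, endothelial (6 genes) to 36.3 to 38, 29.7 to 33.4 and 54.1 to 66 TPM and blood markers (6 genes) to 8.67 to 16, 1.72 to 2.81 and 85 to 219 TPM in SOX17+/T+, T+ and SOX17+ cells. For the streak, endoderm, visceral endoderm, endothelial and blood lists the SOX17+/T+ range of the sum lay between those of the single-positive groups without overlap. T is in the streak sum and Sox17 in the endoderm sum, so the sort itself partly sets their order. Single genes differed in direction. Of 8 streak genes tested, 1 was higher and 4 lower than in T+, and 6 higher and 0 lower than in SOX17+. For 9 endoderm genes these counts were 6 and 0, and 2 and 6. For 5 endothelial genes they were 4 and 1, and 1 and 4. The share of all tested genes that passed was 28.4% against T+ and 36.6% against SOX17+.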

How the data were processed

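The deposited table holds TPM values for 12 libraries, and each column of it adds up to 1000000. Per the labels' protocols, 500 ng of RNA entered a stranded kit and 100 bp paired-end reads were sequenced. The names cutadapt, STAR, StringTie and the builds mm10 and GRCm38 appear in the submitters' processing notes, with no tool versions. Of the table's gene identifiers, 97.8% are in GENCODE M21 with the same coordinates.

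The 282 blank values were taken as 0 and 11 genes listed on more than 1 row were added up, giving 54446 genes. Values were log2(TPM + 1). Genes with at least 1 TPM in at least 3 libraries (16097) were fitted with 1 mean per group in limma 3.58.1 in R 4.3.3 (trend and robust, 8 residual degrees of freedom), with 2-sided p-values adjusted by Benjamini-Hochberg over all tested genes and called under 0.05. The fit was tested on simulated data. Fold changes on this scale understate low genes, and an exact 0 can be a failed estimate. Same-numbered SOX17+/T+ and T+ libraries correlated at r = 0.204, 0.149 and 0.242 across genes after group means were removed. The labels do not state that a number marks a pair, so this is a hint from the data and not the design. The p-values are from the fit without the number as a block unless stated, and the fit with the block is an alternative. The other alternatives were a pseudocount of 0.1, no filter, 2 scalings, another variance model and leaving out each library.

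The genes and the gene lists were chosen with earlier results of these data known. Named besides the 8 genes were the 3 genes of highest Pearson's r over the 12 libraries with at least 5 TPM in a group, tested neighbours within 100 kb, up to 4 called genes of each list, family members, up to 2 marker genes per list and the genes next in order. Esrrb, Isl1, Nqo1, Nup133, Trhr, Trhr2 and the markers listed at 0 fall outside this rule and were added after their values were seen.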

Additional observations from a re-analysis of the deposited data

Results flagged for a closer look

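Trh and Pga5 drew attention because every library of 1 population lay on 1 side of mESC and every library of another on the opposite side. The log2 change of Trh against mESC was 0.60 in SOX17+/T+, -3.02 in T+ and 0.69 in SOX17+ cells. The log2 change of Pga5 was 2.07 in SOX17+/T+, -1.57 in T+ and 1.2 in SOX17+ cells. The difference between the populations was not tested, since SOX17+/T+ cells against T+ and SOX17+ cells is the contrast on which both genes were chosen. Groups of 3 libraries are too small for a check of single outlying libraries.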

How the results depend on the processing

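Counts of called genes over all genes and over the 8 genes stayed within 1.5 times their value under all settings run, and several counts of the small lists did not. Leaving out 1 library at a time gave 7 to 8 of the 8 genes in SOX17+/T+ against mESC, 8 to 8 in T+ and 7 to 8 in SOX17+. Over all genes it gave 13330 to 13767, 13150 to 13601 and 13374 to 13776 in these comparisons, 3653 to 4739 for SOX17+/T+ against T+ and 5155 to 5818 against SOX17+. With the replicate number as a block, 8 of the 8 genes passed in SOX17+/T+ against mESC, and 5202 genes against T+, of which 4519 were among the 4578 of the fit without it. Against SOX17+ the block gave 6471 genes, 5835 of them among the 5894 without it; same-numbered SOX17+/T+ and SOX17+ libraries correlated at 0.0463, 0.178 and 0.224, each best with its own number, a hint from the data and not the design. Same-numbered mESC and sorted libraries correlated at 0.00495 to 0.124, too low to count as paired, though in 8 of 9 cases a library was also best with its own number. With the block, Trh in SOX17+/T+ against mESC passed (adjusted p = 0.01), and 5 genes of the list with Pitx1 were higher than in SOX17+ in place of 3. After quantile normalization, 4 genes of the BC1 list were higher and 1 lower than in SOX17+ in place of 3 and 3, and 6 nucleoporins higher and 1 lower in place of 4 and 2. With a pseudocount of 0.1, 2 genes of the TRH list in place of 3, and 0 of the list with Pitx1 in place of 1, were lower than in SOX17+. Besides Trh, none of the 8 genes changed its call or direction against mESC. The difference from the midpoint moved by more than the spread of SOX17+/T+ libraries for Pga5 and Nup62cl (-0.77) with a pseudocount of 0.1, and for Trh and Pga5 on the linear midpoint; the cause was not tested. The exact depth per library is unknown above the stated minimum of 50 M fragments. This limits Pga5 in T+ and Pitx1 in mESC most, both under 1 TPM.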

Other observations

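Among all 118 genes called above both single-positive groups in SOX17+/T+ cells, 48 (40.7%) were higher still in mESC, as Nptx2 and Bc1 were. Of the 142 genes called below both, 50 (35.2%) were lower still in mESC, as Pitx1 was. Ntn1 averaged 13.7 TPM in SOX17+/T+, 5.94 TPM in T+, 7 TPM in SOX17+ and 16.9 TPM in mESC. Dab1, a reelin adaptor that follows Bc1 in the order, averaged 8.16 TPM in SOX17+/T+, 4.68 TPM in T+, 2.64 TPM in SOX17+ and 9.72 TPM in mESC. Lmo2, a LIM-domain factor of blood and endothelium, averaged 16.6 TPM in SOX17+/T+, 31.4 TPM in T+, 21.4 TPM in SOX17+ and 1.26 TPM in mESC. These genes lie on the contrasts that chose the 8, and the values are descriptions.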
